A study of Mus musculus with 20 samples.

Results

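The 9 genes described here mark neutrophils or act in their recruitment: S100a8, S100a9, Retnlg, Csf3r and Cxcr2, which neutrophils express, the CXCR2 ligand genes Cxcl1, Cxcl2 and Cxcl5, and Csf3, which encodes the growth factor G-CSF. They were taken by name from the 34234 genes of the deposited table. Their RNA was measured in bulk in 20 mouse kidney tumours grown from MSRT1, a single cell line labelled as renal medullary carcinoma. All tumours share this line, and the strain and age of the mice and the doses are not given in the sources used here. The 4 groups held 5 biological replicates each. GYY_PD1 tumours came from mice given GYY4137, a slow-releasing hydrogen sulfide donor, together with anti-PD1, an antibody against the checkpoint receptor PD1. GYY_IgG mice received GYY4137 and IgG, the control antibody. Veh_PD1 mice received vehicle and anti-PD1, and Veh_IgG mice received vehicle and IgG.

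Neutrophils are short-lived phagocytes made in bone marrow. G-CSF acts on its receptor, encoded by Csf3r, to drive their production and release, and chemokines of the CXCL1, CXCL2 and CXCL5 family draw them into tissue through the receptor CXCR2. In tumours, tissue cells and macrophages make these chemokines after signals such as interleukin-1 and TNF, which act on the promoters of chemokine genes through the transcription factor NF-kB, and neutrophils there have been described as suppressing T cells or as attacking tumour cells.

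Cxcl1 and Cxcl2 are neighbours on mouse chromosome 5, with 10755 bases between them (Cxcl1 at 90891241 to 90893115 and Cxcl2 at 90903871 to 90905938, mm10). Their promoters are shown because they were the ligands with measurable RNA and because only these, among the 7 members with an entry in the RefSeq promoter table, held a match to the NF-kB motif (GGG, any 2 bases, then TTTCC) on either strand. The lines below give the 110 bases before the RefSeq start on the plus strand of GRCm38.p6 (chr5:90891135-90891244 for Cxcl1 and chr5:90903789-90903898 for Cxcl2), from 5′ to 3′, with the motif matches on that strand in capitals.
Cxcl1: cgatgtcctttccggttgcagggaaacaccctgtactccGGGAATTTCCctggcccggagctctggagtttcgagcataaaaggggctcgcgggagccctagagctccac
Cxcl2: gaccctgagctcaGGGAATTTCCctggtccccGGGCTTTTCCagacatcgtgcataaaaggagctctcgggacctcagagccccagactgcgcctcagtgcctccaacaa
The longest stretch common to both was GGGAATTTCCCTGG. Its motif match began 71 bases before the start in Cxcl1 and 97 bases before it in Cxcl2. Cxcl2 held another match 78 bases before the start, and Cxcl1 one on the opposite strand 89 bases before it. Of 32851 promoter windows of 300 bases in the table, 535 (1.63%) held this motif. The C/EBP motif TTGCNNAA, found in 10.8% of windows, was present in those of S100a9 and Retnlg, and the TATA motif TATAAAA, found in 5.48%, in that of S100a8. These matches describe letters in the windows and not bound sites.

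Deposited values were log2 TPM, a share of transcripts per library that takes gene length into account and does not tell how deeply a library was sequenced. Raised back to TPM, 13 gene models that resemble the major satellite repeat held 25.8% to 83.4% of TPM in GYY_PD1 libraries, 5.86% to 54.9% in GYY_IgG, 1.63% to 59.6% in Veh_PD1 and 3.53% to 13.2% in Veh_IgG, which lowers the TPM of every other gene. For comparisons, TPM were therefore scaled to the median of the 15422 genes that reached 1 TPM in at least 5 libraries, and log2(scaled TPM + 0.5) was analysed. GYY_PD1 replicates 1 and 4 stood apart from the rest. They needed scale factors of 8.41 and 6.26, against 0.453 to 1.71 for the other libraries, and held 8198 and 6659 genes at 1 TPM or more, against 11517 to 15162 in the other 18 libraries. The median Spearman rank correlation with the other libraries was 0.389 for replicate 1 and 0.803 for replicate 4. It was 0.854 to 0.929 for the other 18 libraries. Scaling does not change the order of genes within a library, so replicate 1 stays unlike the rest after it. Differences that involve GYY_PD1 are therefore given with and without replicates 1 and 4. The part of the satellite-like share in the results was not tested, and in bulk RNA fewer cells of a type and less RNA per cell cannot be told apart.

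The levels of the members differed widely. Over all 20 libraries, mean levels were 85.7 TPM for S100a9 and 66.4 TPM for S100a8, then 26.5 TPM for Cxcl1, 11.7 TPM for Retnlg, 11.2 TPM for Cxcl2, 6.91 TPM for Csf3r and 1.54 TPM for Cxcr2. Cxcl5 (0.555 TPM) and Csf3 (0.134 TPM) were close to the bottom of the range. Most neighbours in this order kept it within single libraries: S100a9 was above S100a8 in 17 of 20, S100a8 above Cxcl1 in 16, Cxcl1 above Retnlg in 18, Cxcl2 above Csf3r in 18 and Csf3r above Cxcr2 in all 20. Retnlg and Cxcl2 could not be ordered, with Retnlg the higher in 10 of 20 libraries. Of the 9 members, 7 passed the filter on low values. Cxcl5 reached 1 TPM in 2 libraries and Csf3 in 0.

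S100a8 and S100a9 encode the calcium-binding subunits of calprotectin, which fills the cytoplasm of neutrophils and is also made by monocytes. They lie on chromosome 3 (S100a8 at 90668978 to 90670035, plus strand; S100a9 at 90692632 to 90695721, minus strand; mm10). In replicates 1 to 5, S100a8 was at 0, 75.2, 34.8, 50.1 and 20.2 TPM in GYY_PD1 tumours and at 31.1, 30.7, 88.5, 62.4 and 33.2 TPM in GYY_IgG tumours. It was at 116, 106, 147, 92.7 and 61.0 TPM in Veh_PD1 tumours and at 20.7, 49.7, 64.0, 233 and 10.1 TPM in Veh_IgG tumours. Veh_PD1 was the group with the narrowest relative range, and the Veh_IgG tumours enclosed it, because replicate 4 was higher and the other 4 replicates were lower than most Veh_PD1 tumours. S100a9 was at 0, 117, 79.2, 101 and 28.3 TPM in GYY_PD1 tumours and at 59.0, 40.9, 171, 69.9 and 35.7 TPM in GYY_IgG tumours. It was at 104, 96.5, 163, 140 and 91.5 TPM in Veh_PD1 tumours and at 21.8, 66.0, 67.2, 247 and 14.02 TPM in Veh_IgG tumours. The same tumours were high and low for both genes, and the groups overlapped.

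Retnlg encodes a resistin-like secreted protein that mature mouse neutrophils make, and lies on chromosome 16 (48872621 to 48874496). It was at 0, 25.4, 5.53, 10.7 and 2.32 TPM in GYY_PD1 tumours and at 3.01, 1.75, 9.49, 6.51 and 5.93 TPM in GYY_IgG tumours. It was at 14.5, 16.9, 22.5, 26.9 and 14.4 TPM in Veh_PD1 tumours and at 5.90, 7.61, 12.9, 40.4 and 1.13 TPM in Veh_IgG tumours. Every Veh_PD1 tumour was above 4 of the 5 Veh_IgG tumours, 4 of the 5 GYY_PD1 tumours and all 5 GYY_IgG tumours. On the scaled values this order was less complete, because Veh_PD1 ran from 9.36 to 32.8 and overlapped with each other group.

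**Figure D1:**
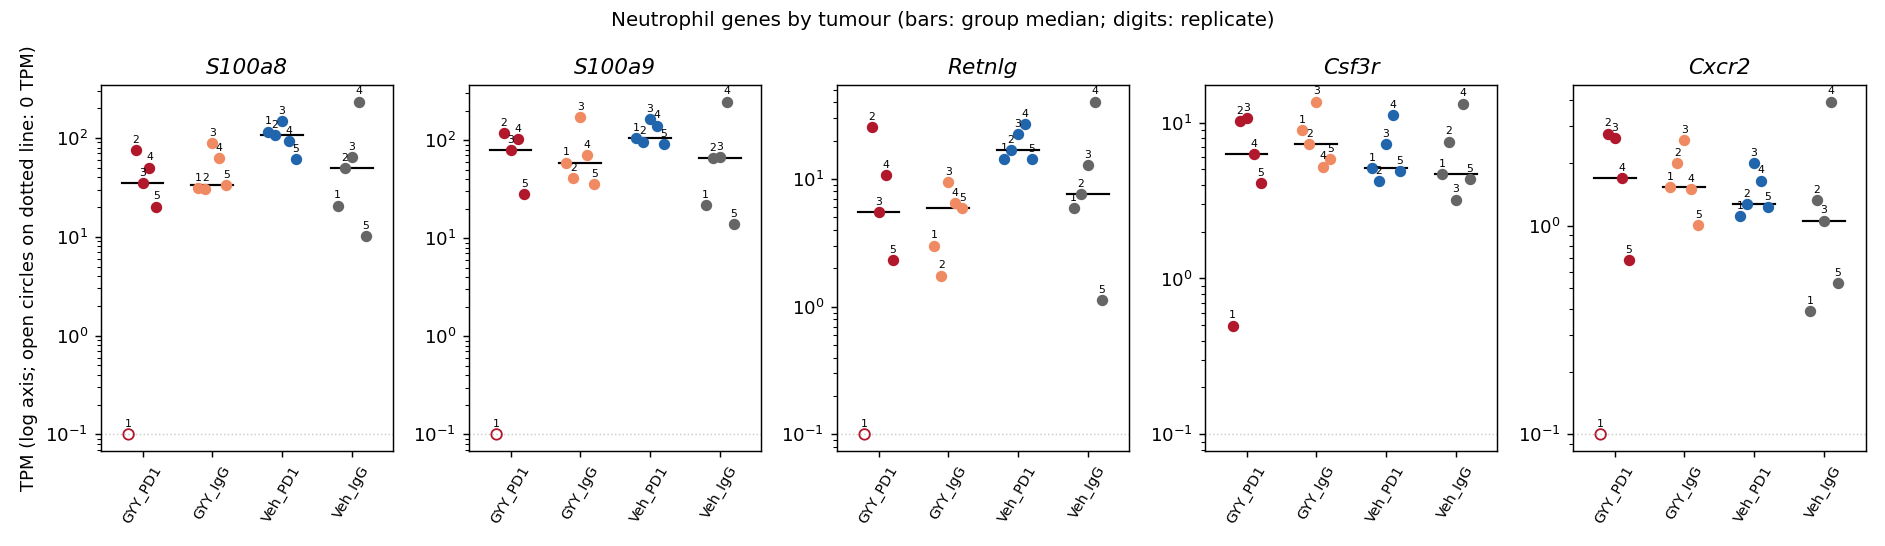
TPM (log axis) of S100a8, S100a9, Retnlg, Csf3r and Cxcr2 in each tumour, by group, with bars at the group medians, replicate numbers beside the points and open circles for values listed at 0. In GYY_PD1 replicate 1, 4 of these 5 genes were listed at 0, and in Veh_IgG replicate 4 all 5 were the highest of their group.

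The receptor genes were lower in level and, on the log scale, spread less between tumours. Csf3r, on chromosome 4 (126024550 to 126044440), was at 0.499, 10.2, 10.7, 6.26 and 4.09 TPM in GYY_PD1 tumours and at 8.91, 7.24, 13.6, 5.22 and 5.82 TPM in GYY_IgG tumours. It was at 5.11, 4.23, 7.28, 11.2 and 4.89 TPM in Veh_PD1 tumours and at 4.66, 7.54, 3.20, 13.2 and 4.31 TPM in Veh_IgG tumours. Apart from GYY_PD1 replicate 1, all groups covered much the same range. Cxcr2, on chromosome 1 (74153989 to 74161246), ran from 0 to 2.76 TPM in GYY_PD1 tumours (median 1.69), from 1.00 to 2.56 in GYY_IgG (median 1.53), from 1.11 to 1.99 in Veh_PD1 (median 1.27) and from 0.389 to 3.93 in Veh_IgG (median 1.06).

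Of the ligands, Cxcl1 was at 0.657, 25.4, 16.3, 8.99 and 17.0 TPM in GYY_PD1 tumours and at 40.4, 29.5, 22.6, 8.60 and 27.9 TPM in GYY_IgG tumours. It was at 40.9, 30.3, 24.8, 49.2 and 11.03 TPM in Veh_PD1 tumours and at 23.4, 35.1, 36.4, 41.1 and 39.7 TPM in Veh_IgG tumours. Veh_IgG was the most even group for this chemokine, and on these unscaled TPM 1 GYY_PD1 tumour lay inside its range, replicate 2. On the scaled values Veh_IgG ran from 10.6 to 26.0. GYY_PD1 replicates 2, 3 and 5 lay inside that range (21.9, 15.4 and 19.4), replicate 1 under it (5.52) and replicate 4 above it (56.3). Cxcl2 was at 0.556, 12.3, 14.8, 10.2 and 5.59 TPM in GYY_PD1 tumours and at 14.2, 10.8, 25.6, 4.26 and 4.53 TPM in GYY_IgG tumours. It was at 18.3, 9.21, 8.27, 22.0 and 5.78 TPM in Veh_PD1 tumours and at 6.61, 8.08, 9.99, 21.3 and 12.6 TPM in Veh_IgG tumours. The groups overlapped throughout for Cxcl2.

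Cxcl5, whose product is made mainly by epithelial cells and platelets and which lies 129616 bases before Cxcl1 (90759360 to 90761624), was close to its lower limit. It ran from 0 to 0.814 TPM in GYY_PD1, from 0.341 to 0.683 in GYY_IgG, from 0.0434 to 0.811 in Veh_PD1 and from 0.295 to 2.04 in Veh_IgG, where replicates 4 and 5 were the only tumours above 1 TPM. Csf3, on chromosome 11 (98701263 to 98703629), was at 0.457, 0.108, 0, 0.0711 and 0.0914 TPM in GYY_PD1 tumours and at 0.0965, 0.199, 0, 0.111 and 0.0883 TPM in GYY_IgG tumours. It was at 0.417, 0.171, 0.0981, 0.437 and 0.133 TPM in Veh_PD1 tumours and at 0, 0, 0, 0.167 and 0.0384 TPM in Veh_IgG tumours. G-CSF RNA was thus listed above 0 in all 5 Veh_PD1 tumours and in 2 of 5 Veh_IgG tumours, at levels for which the depth behind the values is not known.

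**Figure D2:**
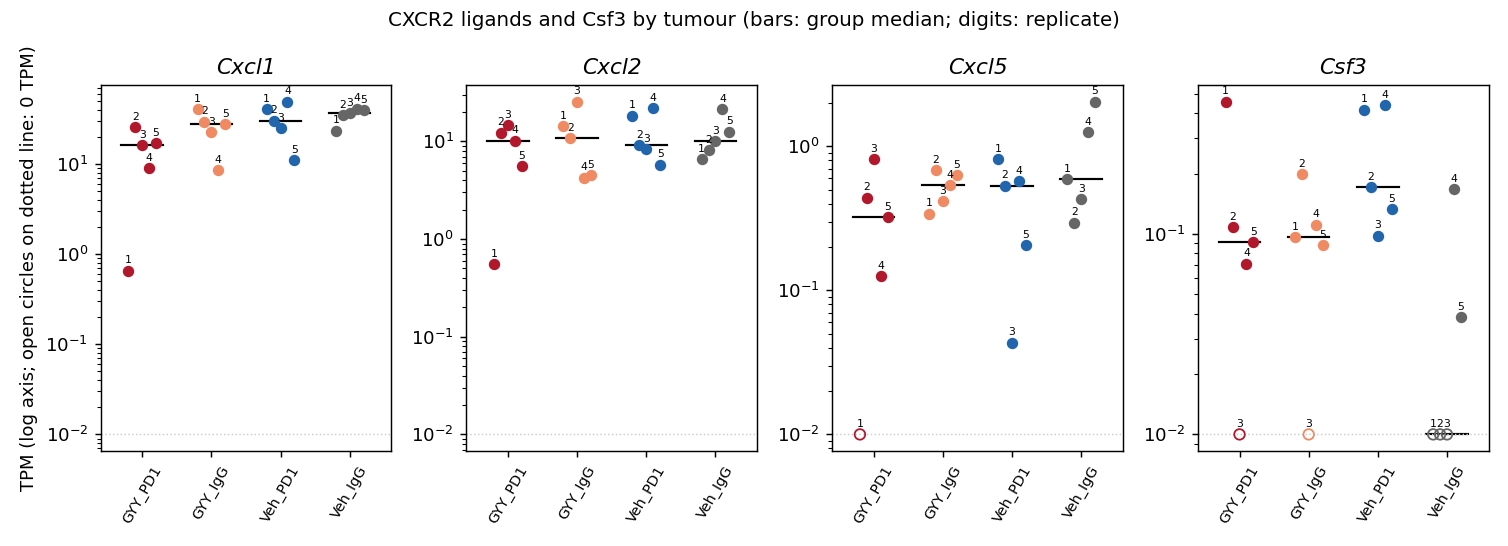
TPM (log axis) of Cxcl1, Cxcl2, Cxcl5 and Csf3 in each tumour, by group, with bars at the group medians, replicate numbers beside the points and open circles for values listed at 0. Cxcl1 and Cxcl2 lay near or above 10 TPM in most tumours, while Csf3 stayed under 1 TPM in all 20.

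Veh_PD1 tumours were set against Veh_IgG tumours to ask how anti-PD1 acts on these genes when no donor is given. After scaling, all 7 tested members had a higher mean in Veh_PD1, although Cxcl1 was lower there on the deposited values (log2 difference -0.31), and limma called none of them. S100a8 averaged 114 ± 51.3 scaled TPM in Veh_PD1 and 47.1 ± 58.2 in Veh_IgG (SD, n = 5 each), a log2 difference of 2.03 (SE 1.25). S100a9 averaged 133 ± 51.7 in Veh_PD1 and 51.9 ± 60.8 in Veh_IgG (log2 difference 2.02, SE 1.35), and Retnlg averaged 21.1 ± 9.10 in Veh_PD1 and 8.40 ± 10.01 in Veh_IgG (1.90, SE 1.06). The differences were smaller for Csf3r (0.85, SE 0.60), Cxcl2 (0.88, SE 0.72), Cxcr2 (0.74, SE 0.63) and Cxcl1 (0.54, SE 0.51). All 7 had an adjusted p = 1 with limma. In this comparison limma called 0 of 15422 genes (0%), with 230 at an unadjusted p under 0.05. No member could thus stand out from a background of calls. The SE and limma p rest on a spread shared by all 4 groups, so GYY_PD1 tumours enter them. On the scaled log2 values the SD of S100a8 was 3.44 in GYY_PD1, 0.62 in Veh_PD1 and 1.82 in Veh_IgG. Without GYY_PD1 replicates 1 and 4, 915 genes had an unadjusted p under 0.05. A fit of Veh_PD1 and Veh_IgG alone gave 813, and limma called 0 genes in either fit.

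Single-gene permutation tests of these 5 against 5 tumours gave an exact two-sided p = 0.0476 for S100a8, S100a9 and Retnlg on the scaled values, not adjusted for the 45 such tests made over 9 members and 5 comparisons. They were among 4 of the 45 under 0.05, the other one being Csf3 (log2 difference 0.59, exact p = 0.0238). Without scaling the exact p was 0.183 for S100a8 and S100a9 and 0.175 for Retnlg, with log2 differences of 1.19, 1.18 and 1.14. Of the Veh_PD1 tumours 3 of 5, and of the Veh_IgG tumours 0 of 5, held more than 20% satellite-like TPM. The number of the 45 exact tests under 0.05 moved when single tumours were left out. Without Veh_IgG replicate 1, 2 or 3 the count was 0, without Veh_IgG replicate 5 or Veh_PD1 replicate 1, 4 or 5 it was 1, and without Veh_PD1 replicate 3 it was 2. Without Veh_IgG replicate 4, the tumour with the most neutrophil RNA of its group, it was 6, and without GYY_PD1 replicate 4, which takes no part in this comparison, it was 7.

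GYY4137 added to anti-PD1 was followed by comparing GYY_PD1 with Veh_PD1. The calprotectin genes and Retnlg had lower means on the log scale in GYY_PD1, while the differences of the receptor genes lay near 0 or above it on the scaled values. With 1 library left out those of Csf3r ran from -0.0073 to 0.76 and those of Cxcr2 from -0.40 to 0.72. A pseudocount of 0.1 gave -0.15 for Cxcr2. On the deposited values Csf3r (-0.53) and Cxcr2 (-1.66) were lower. There GYY_PD1 replicate 1 lay at -1.002 for Csf3r and at the floor of -8.879 for Cxcr2. The deposited log2 values of GYY_PD1 replicates 2 to 5 were 2.033 to 3.415 for Csf3r and -0.548 to 1.464 for Cxcr2. Those of Veh_PD1 were 2.081 to 3.485 and 0.152 to 0.992. On the scaled values S100a8 had a log2 difference of -2.14 (SE 1.25), S100a9 of -1.68 (SE 1.35), Retnlg of -1.57 (SE 1.06) and Cxcl1 of -0.66 (SE 0.51). The difference was 0.49 (SE 0.60) for Csf3r, 0.17 (SE 0.63) for Cxcr2 and 0.06 (SE 0.72) for Cxcl2. None passed limma (adjusted p from 0.401 to 0.967), which called 0 of 15422 genes (0%), with 2169 at an unadjusted p under 0.05. The 2 tumours that stood apart lay at opposite ends. In replicate 1 these 3 genes were listed at 0, and in replicate 4 scaling made S100a8 (314 scaled TPM), S100a9 (635) and Retnlg (66.8) the highest of all 20 tumours.

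Without replicate 1 alone the log2 difference was -0.74 for S100a8 and -0.12 for S100a9. Without GYY_PD1 replicates 1 and 4 the differences were -1.51 for S100a8 (SE 0.90), -0.95 for S100a9 (SE 0.93), -1.43 for Retnlg (SE 0.92), -0.63 for Cxcl1 (SE 0.47), -0.26 for Cxcl2 (SE 0.72), 0.18 for Csf3r (SE 0.59) and 0.14 for Cxcr2 (SE 0.50). S100a8 then averaged 40.3 ± 21.8 scaled TPM in GYY_PD1 (SD, n = 3) and 114 ± 51.3 in Veh_PD1 (SD, n = 5), with an exact permutation p = 0.0357, where 56 splits allow no p under 0.0179, and a limma adjusted p = 0.651. On unscaled TPM the S100a8 difference was -2.57 over all 5 tumours (exact permutation p = 0.0159) and -1.41 without replicates 1 and 4 (exact permutation p = 0.0357). On the deposited log2 values, which hold no added constant, the median difference of all tested genes was -1.17 over all tumours. It was 0.096 without those replicates. On the scaled values of all 5 tumours the S100a8 difference had an exact permutation p = 0.206. None of these exact p was adjusted.

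The other comparisons gave smaller or mixed differences for the members. GYY4137 alone, in GYY_IgG tumours against Veh_IgG tumours, had log2 differences of 0.72 for Csf3r (SE 0.60), 0.70 for S100a9 (SE 1.35), 0.60 for Cxcr2 (SE 0.63), 0.40 for S100a8 (SE 1.25), 0.21 for Cxcl2 (SE 0.72), -0.19 for Cxcl1 (SE 0.51) and -0.35 for Retnlg (SE 1.06). All had a limma adjusted p = 1, and limma called 0 of 15422 genes (0%), with 137 at an unadjusted p under 0.05. Here too the spread was shared with GYY_PD1. Without GYY_PD1 replicates 1 and 4, 544 genes had an unadjusted p under 0.05, with 0 called. A fit of GYY_IgG and Veh_IgG alone gave 794, with 3 called. Both treatments together, in GYY_PD1 tumours against Veh_IgG tumours, had their largest member difference in Csf3r, which averaged 13.4 ± 14.7 scaled TPM in GYY_PD1 and 3.97 ± 2.77 in Veh_IgG (SD, n = 5 each; log2 difference 1.34, SE 0.60, limma adjusted p = 0.273). With 1 library left out this difference ran from 0.84 to 1.64. Without GYY_PD1 replicates 1 and 4 Csf3r averaged 7.85 ± 2.81 in GYY_PD1 (SD, n = 3), a log2 difference of 1.03 (SE 0.59, limma adjusted p = 0.726), and the differences of all 7 members ran from -0.09 (Cxcl1, SE 0.47) to 1.07 (S100a9, SE 0.93). Over all 5 GYY_PD1 tumours the differences of Cxcl2 and Cxcr2 were 0.94 (SE 0.72) and 0.92 (SE 0.63), and those of S100a9, Retnlg, S100a8 and Cxcl1 lay between -0.11 and 0.34. Limma called 0 of 15422 genes there (0%), with 2682 at an unadjusted p under 0.05. In GYY_PD1 tumours against GYY_IgG tumours the differences ran from -0.51 (S100a8, SE 1.25) to 0.73 (Cxcl2, SE 0.72), and limma called 0 genes (0%), with 1561 at an unadjusted p under 0.05. They ran, without GYY_PD1 replicates 1 and 4, from 0.10 (Cxcl1, SE 0.47) to 0.82 (Retnlg, SE 0.92). These comparisons share groups with each other and with those above, and their values for a gene are not independent.

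The call of Cxcl1 depended on the scaling. In GYY_PD1 tumours against Veh_IgG tumours it had a log2 difference of -0.11 (SE 0.51, limma adjusted p = 0.904) after scaling, and of -2.04 on the deposited log2 values (limma adjusted p = 0.0257), a scale on which the tested genes as a whole had a median log2 difference of -2.09. It was the only member difference past the threshold among 1115 fitted under the alternative settings of limma.

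**Figure D3:**
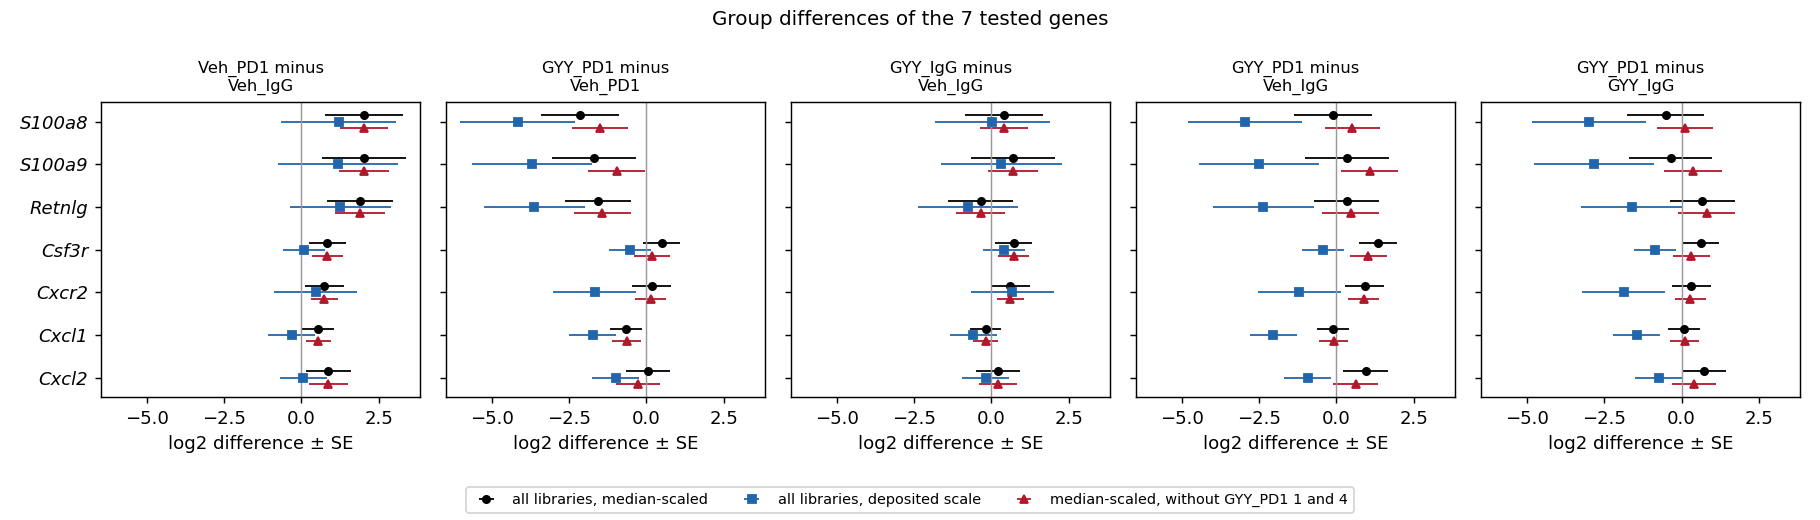
Log2 differences with SE of the 7 tested members in the 5 comparisons between groups, first group minus second, for scaled values of all tumours (black), deposited values (blue) and scaled values without GYY_PD1 replicates 1 and 4 (red). Values for S100a8, S100a9 and Retnlg lay at 1.90 to 2.03 in Veh_PD1 minus Veh_IgG on the scaled values, and the blue points of comparisons with GYY_PD1 lay to the left of the black ones.

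Averaged over both antibodies, GYY4137 had log2 differences between -0.96 (Retnlg, SE 0.75) and 0.60 (Csf3r, SE 0.42) against vehicle. Averaged over vehicle and donor, anti-PD1 had positive differences from IgG for all 7 tested members on the scaled values, from 0.31 (Cxcl1, SE 0.36) to 1.29 (Retnlg, SE 0.75). The interaction, in which the donor effect under IgG is subtracted from that under anti-PD1, was negative for all 7 on the same scale, from -0.15 (Cxcl2, SE 1.01) to -2.54 (S100a8, SE 1.77). Without GYY_PD1 replicates 1 and 4 the donor averages ran from -0.89 (Retnlg, SE 0.61) to 0.45 (Csf3r, SE 0.39), those of anti-PD1 from 0.32 (Cxcl1, SE 0.31) to 1.36 (Retnlg, SE 0.61) and the interactions from -0.44 (Cxcl1) to -1.92 (S100a8). With all tumours, no member passed limma in these 3 tests (smallest adjusted p = 0.643 for the donor, 0.615 for anti-PD1 and 0.876 for the interaction), nor did any other gene (0% of 15422, with 1379, 1163 and 402 genes at an unadjusted p under 0.05).

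The genes went together from tumour to tumour on the scaled values. Over the 20 tumours, S100a8 and S100a9 had a Pearson r of 0.985 and a Spearman rho of 0.977 on the scaled log2 values, and 0.989 (Pearson) after the group means were subtracted. Retnlg followed them (r = 0.935 with S100a8). Csf3r and Cxcr2, the receptor genes, had r = 0.903 and rho = 0.895. Csf3r had r = 0.889 (rho = 0.830) with the ligand Cxcl2. With other neutrophil genes it had r = 0.620 (rho = 0.738) for S100a8, 0.696 (rho = 0.832) for S100a9 and 0.679 (rho = 0.711) for Retnlg. Without GYY_PD1 replicates 1 and 4, r of Csf3r was 0.839 with Cxcl2, 0.710 with S100a8, 0.839 with S100a9 and 0.646 with Retnlg. Differences between these r were not tested. Cxcl1 and Cxcl2 had r = 0.812 and rho = 0.761.

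All 21 pairs of the 7 tested members passed a two-sided permutation test with 100000 resamples, adjusted over the 21 pairs (largest adjusted p = 0.00496 for Pearson and 0.0324 for Spearman). Without the 2 tumours farthest from the median of the first gene of a pair, 19 of 21 passed, and without GYY_PD1 replicates 1 and 4 20 of 21 did. On unscaled TPM of all 20 tumours 21 of 21 passed, and the 10 pairs of a ligand with a neutrophil gene had r from 0.491 to 0.843. Both changes together lowered the count, since on unscaled TPM without those replicates 9 of 21 pairs passed, the calprotectin pair had r = 0.943, Cxcl1 and Cxcl2 had r = 0.596, and the 10 ligand and neutrophil pairs had r from 0.0192 to 0.653. Values of 1 library share its scale factor, which bears on every pair. The share of pairs passing among all tested genes was not computed, so these counts cannot be read as particular to the members.

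**Figure D4:**
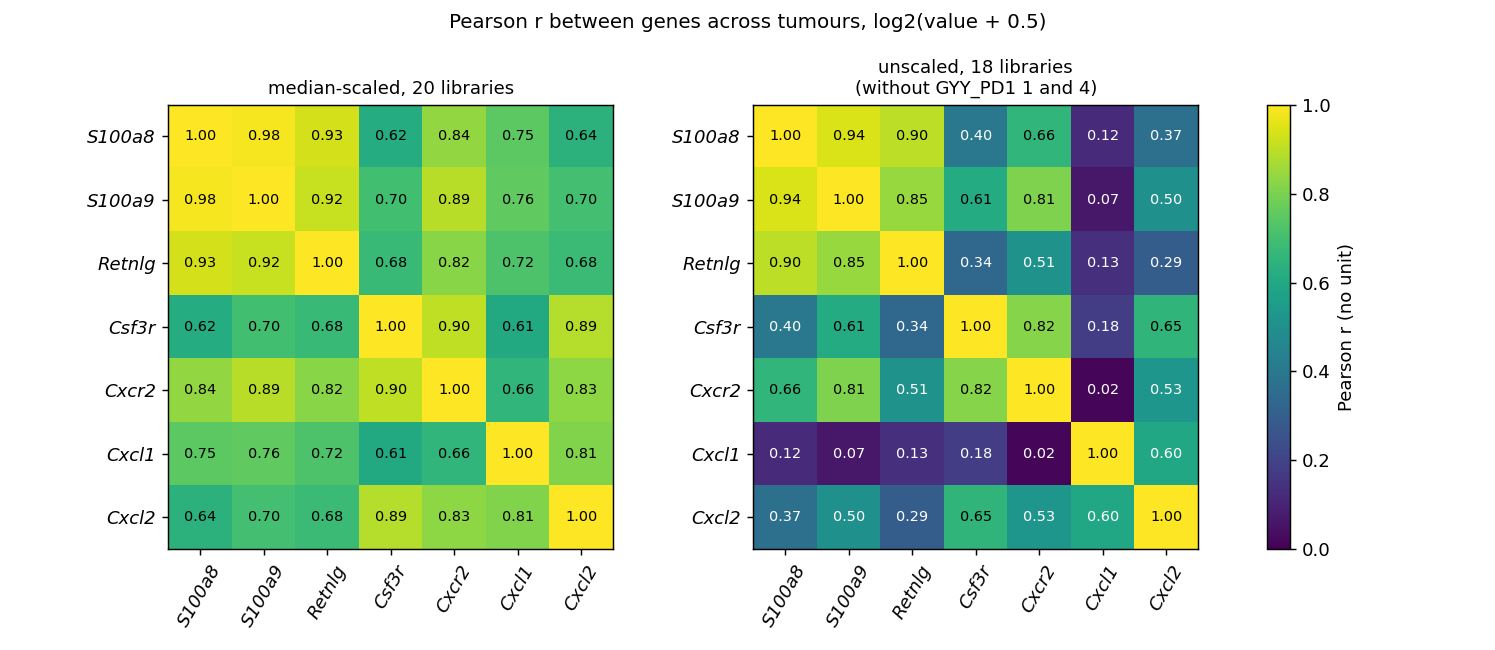
Pearson r between the 7 tested members across tumours, for scaled values of all 20 tumours (left) and for unscaled values of 18 tumours without GYY_PD1 replicates 1 and 4 (right); colour runs from 0 to 1. S100a8, S100a9 and Retnlg formed a block in both panels, and the pairs of Cxcl1 with neutrophil genes were at 0.181 or less on the right.

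Ratios of 2 genes within a library do not depend on its scale. They were chosen after the values were seen and are given with no test. The ratio of Retnlg to Csf3r was 2.49, 0.518, 1.70 and 0.567 in GYY_PD1 replicates 2 to 5, and 0.338, 0.242, 0.696, 1.25 and 1.02 in GYY_IgG tumours. It was 2.83, 3.99, 3.10, 2.40 and 2.93 in Veh_PD1 tumours and 1.26, 1.01, 4.03, 3.06 and 0.262 in Veh_IgG tumours. Veh_PD1 tumours were high and even for this ratio, GYY_IgG tumours were low, and Veh_IgG tumours spanned both. The ratio of S100a8 to S100a9 ran from 0.440 to 0.715 in GYY_PD1, from 0.517 to 0.930 in GYY_IgG, from 0.662 to 1.11 in Veh_PD1 and from 0.722 to 0.953 in Veh_IgG. GYY_PD1 replicates 2 to 5 lay narrowly under the lowest Veh_IgG tumour for this ratio (0.715 against 0.722) and overlapped with GYY_IgG and Veh_PD1. How often other ratios separate these groups was not computed. S100a8 was listed at 0 together with S100a9 in GYY_PD1 replicate 1. The ratio of Cxcr2 to Csf3r averaged 0.238 ± 0.0489 in GYY_PD1 (n = 4), 0.219 ± 0.0575 in GYY_IgG, 0.237 ± 0.0591 in Veh_PD1 and 0.202 ± 0.108 in Veh_IgG (SD, n = 5 each), differences within the spread of the groups.

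**Figure D5:**
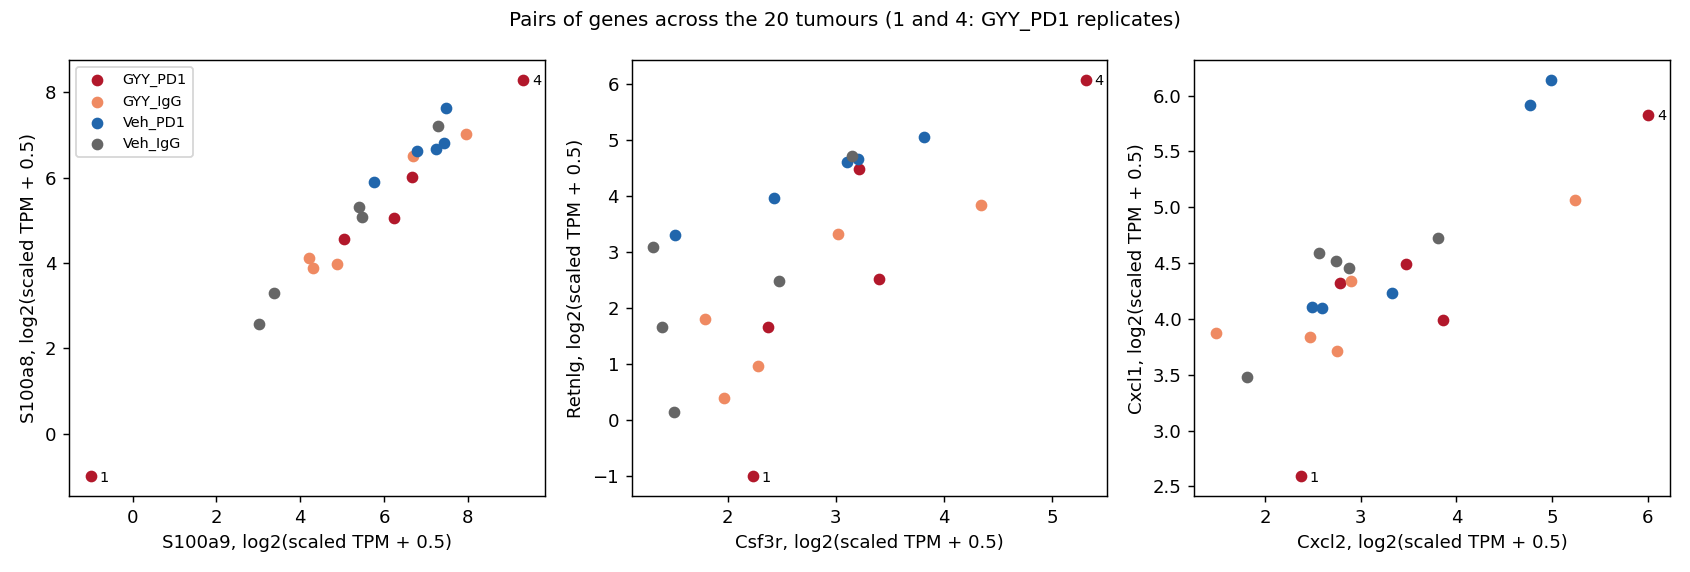
Scaled log2 levels of S100a8 against S100a9, Retnlg against Csf3r and Cxcl1 against Cxcl2, with 1 point per tumour coloured by group and GYY_PD1 replicates 1 and 4 numbered. The calprotectin pair lay on a narrow line (r = 0.985), while Veh_PD1 tumours lay above most others for Retnlg at a given Csf3r.

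The genes most like each member across the 20 tumours, ranked by Pearson r among the 15422 tested genes, are given with that r. Genes with provisional names, pseudogenes and immunoglobulin or T cell receptor segments were left out of this ranking. For S100a8 and S100a9 they included Stfa2l1 (r = 0.938 and 0.949), a stefin-like protease inhibitor gene, Il1r2 (0.936 and 0.946), the decoy receptor for interleukin-1, and Ifitm1 (0.917 and 0.947). For Csf3r they were Hdc (0.953), which makes histamine, Il1f9 (0.951), G0s2 (0.946), Lilr4b (0.936) and Acod1 (0.933), which makes itaconate. For Cxcr2 they were Srgn (0.935), the granule proteoglycan serglycin, Asprv1 (0.925), Plaur (0.923), Slfn4 (0.921) and Ifitm1 (0.919). Cxcl1 was most like Csf2 (0.930), which encodes GM-CSF, followed by the NF-kB regulators Nfkbiz (0.872) and Nfkbia (0.866), Hilpda (0.851) and Platr22 (0.848). Cxcl2 was most like Ccrl2 (0.953), Hcar2 (0.931), Samsn1 (0.929), Zc3h12a (0.925), which encodes an RNase that degrades inflammatory transcripts, and Osm (0.923). Without GYY_PD1 replicates 1 and 4 the closest gene of Cxcl1 was still Csf2 (r = 0.888 over 18 tumours) and that of Cxcl2 still Ccrl2 (0.932), whereas that of Csf3r was Ccl3 (0.945) and that of Cxcr2 was Csf3r (0.928).

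Other neutrophil genes were read from a list of 36, of which 25 passed the filter. The highest were Lcn2 (328 scaled TPM on average), which encodes the iron-siderophore binder lipocalin 2 and which epithelial cells also make, Alox5ap (28.9), needed for leukotriene synthesis, Itgb2 (15.4), the integrin chain of leukocytes, and Clec4d (9.997), a C-type lectin receptor. Of genes that define the lineage or its granules, Ly6g reached 1 TPM in 1 of 20 tumours and Mpo, Elane, Ctsg and Camp in 0, while Prtn3, which encodes a protease of early granules, reached it in 19 (4.10 scaled TPM on average). Other genes of the list differed in this: Mmp8 and Pglyrp1 reached 1 TPM in 18 tumours, Mmp9 in 15, Olfm4 in 10 and Cd177 in 7. Ngp reached it in 3 and Ltf in 2. All genes named for this count were chosen after their values were seen. The 25 genes that passed the filter followed S100a9 to unlike degrees. Their Pearson r with it over the 20 tumours ran from -0.361 (Prtn3) to 0.946 (Il1r2). Without GYY_PD1 replicates 1 and 4 it ran from 0.038 (Hp) to 0.936 (Cd177). A median over the list is therefore not a measure of neutrophil RNA alone. Relative to Veh_IgG and on scaled values, the median log2 difference of the 25 was 0.67 in GYY_PD1 (22 positive), 0.28 in GYY_IgG (21 positive) and 0.39 in Veh_PD1 (22 positive). The medians of all tested genes there were -0.11, -0.01 and -0.02. In GYY_PD1 minus Veh_PD1 the median was 0.24 with 17 positive, against -0.08 over all genes. Without GYY_PD1 replicates 1 and 4 the median of the 25 was 0.58 in GYY_PD1 minus Veh_IgG (23 positive) and 0.02 in GYY_PD1 minus Veh_PD1 (14 positive), against -0.03 and -0.01 over all genes. None of the 25 was called by limma in any of the 8 comparisons, where the background was 0% throughout.

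The genes around CXCR2 signalling were also uncalled. Of 15 other CXC chemokines and receptors, 11 passed the filter, and their median log2 difference was 0.71 in GYY_PD1 minus Veh_IgG (10 of 11 positive) and 0.32 in Veh_PD1 minus Veh_IgG (8 of 11 positive). The first of these was 1.06 (10 of 11 positive) without GYY_PD1 replicates 1 and 4. Cxcl3, another ligand gene of CXCR2, had 8.54 scaled TPM on average and a log2 difference of 1.59 (SE 0.62) in GYY_PD1 minus Veh_IgG (limma adjusted p = 0.252), and of 1.23 (SE 0.63) without those replicates. Ppbp, the platelet ligand of CXCR2, had 1.17. Among 10 other colony stimulating factors and receptors, 8 of which passed the filter, Csf1 (24.1 scaled TPM), for macrophages, and Csf2 (4.27) were far above Csf3 (0.329). Of 24 inducers of CXCR2 ligands and G-CSF in the table, 23 passed the filter, led by Cebpb (68.0), a factor at neutrophil and cytokine genes, Il1b (27.2), Nfkbia (24.6), the inhibitor of NF-kB, and Tnfrsf1a (20.5), the TNF receptor. Il1b had a log2 difference of 1.51 (SE 0.93) in Veh_PD1 and of 1.68 (SE 0.93) in GYY_PD1, each relative to Veh_IgG (limma adjusted p = 1 and 0.330), the second being 1.81 (SE 0.83) without those replicates. Over the 23 inducers the median log2 difference was -0.11 in Veh_PD1 (8 positive) and 0.06 in GYY_PD1 (14 positive), each relative to Veh_IgG. The medians of all tested genes there were -0.02 and -0.11. Of these lists 0 genes were called in any comparison.

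Markers of other cells were also compared, among them cells that share S100a8 and S100a9 or make the ligands. The 7 monocyte markers, all of which passed the filter, summed to 85.7 to 133 scaled TPM in GYY_PD1, 86.7 to 126 in GYY_IgG, 61.9 to 138 in Veh_PD1 and 94.5 to 124 in Veh_IgG. The 9 macrophage markers averaged 565 ± 221 in GYY_PD1, 573 ± 234 in GYY_IgG, 495 ± 143 in Veh_PD1 and 666 ± 112 in Veh_IgG (SD, n = 5 each). The monocyte markers summed to 85.7 to 129 in GYY_PD1 without replicates 1 and 4, and the macrophage markers averaged 703 ± 166 (SD, n = 3). Both lists overlapped between all groups. Erythroid markers, 4 globin genes and Alas2, had lower means in GYY_PD1 beside S100a8, S100a9 and Retnlg: all 5 had negative differences in GYY_PD1 minus Veh_PD1, with a median log2 difference of -1.71 over all tumours and of -1.13 without replicates 1 and 4, and limma called 0 of them. They summed to 8.10 to 55.9 scaled TPM in GYY_PD1, 37.3 to 150 in GYY_IgG, 48.7 to 201 in Veh_PD1 and 79.6 to 204 in Veh_IgG, and 4 of the 5 were at 0 in GYY_PD1 replicate 1. Fibroblast and endothelial markers went the other way in GYY_PD1 minus Veh_PD1. The median log2 difference was 1.82 for fibroblast markers (6 of 6 positive) and 0.59 for endothelial markers (3 of 4 positive). Without replicates 1 and 4 it was 2.26 and 0.83. In Veh_PD1 minus Veh_IgG it was -0.93 (0 of 6 positive) and -0.11 (1 of 4 positive). Fibroblast markers summed to 11.9 to 518 scaled TPM within GYY_PD1, and limma called 0 of either list. The part of these cells in the member values was not tested. Mast cell and eosinophil markers had 0 members above the filter.

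GYY_PD1 replicate 1 had neutrophil genes listed at 0 and others above it. In this tumour 5 of the 9 members were listed at 0 (S100a8, S100a9, Retnlg, Cxcr2 and Cxcl5), and so were 13 of the 36 other neutrophil genes, against a median of 2 in the 18 tumours apart from replicates 1 and 4. None of the 7 monocyte or 9 macrophage markers was at 0 there. Of all 15422 tested genes, 2744 were listed at 0 in this library, against a median of 513, so the zeros of the members cannot be told apart from a general loss of genes.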

How the data were processed

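Per the labels' protocols, total RNA was turned into cDNA and sequenced from Nextera XT libraries. The deposited values are log2 TPM by the authors, with a floor of -8.88 for 0 TPM and no constant added. The submitters' processing notes name the build mm10 and the tools HTSeq 0.11.0, Salmon 0.14.1, fastp and cutadapt; which made the TPM is not given in the sources used here. TPM keep no read number, so sequencing depth is unknown and counting error cannot be stated. Columns were matched to samples by their labels.

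The members and gene lists were chosen with earlier results of these data known. TPM were multiplied by the geometric mean of the library medians over the library's own median, and log2(scaled TPM + 0.5) was fitted in 1 limma model of 4 groups (limma 3.58.1, R 4.3.3, trended variance, 16 residual degrees of freedom), after a filter of 1 TPM in at least 5 libraries. Benjamini-Hochberg adjusted p under 0.05 over 15422 genes was the threshold. Single members were also tested with exact permutations of 5 against 5 (252 splits, smallest p = 0.00794). Named genes are the members, the 5 genes with the highest r with each member, and up to 4 genes of highest mean scaled TPM per list. The ranking by r left out provisional names, pseudogenes and immunoglobulin or T cell receptor segments. Others named were chosen after their values were seen. Gene positions are from GENCODE M21 and promoters from RefSeq GRCm38.p6. Replicates are labelled biological; same-numbered samples of different groups did not deviate together (r from -0.200 to 0.200 over 30 pairs), so numbers were not used as pairs. Alternatives were other scalings, pseudocounts, filters, fits and libraries left out.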

Additional observations from a re-analysis of the deposited data

Results flagged for a closer look

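Dixon's ratio was computed on TPM in 36 sets of 5 tumours (9 genes in 4 groups). In 6 cases a single tumour, each time the highest, lay farther from its group than the 95% critical value of 0.71 allows. That value assumes normal data, TPM were not log-transformed and genes of 1 tumour are correlated, so the count cannot be set against chance. Veh_IgG replicate 4 accounted for 4 of the 6 cases, with S100a8 at 233 TPM (next highest 64.0), S100a9 at 247 TPM (next 67.2), Cxcr2 at 3.93 TPM (next 1.33) and Csf3 at 0.167 TPM (next 0.0384). This tumour held 13.2% satellite-like TPM, the highest share of its group. GYY_IgG replicate 3 had S100a9 at 171 TPM (next 69.9) and a satellite-like share of 54.9%, also the highest of its group. GYY_PD1 replicate 1 had Csf3 at 0.457 TPM (next 0.108) while 5 other members were listed at 0. The part of these shares in the values was not tested.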

How the results depend on the processing

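With limma over all genes, the counts of calls, 0 in all 8 comparisons as reported, changed under the settings given here. On deposited values there were 10831 calls for GYY_PD1 minus Veh_IgG (48 higher, 10783 lower), 12 for GYY_PD1 minus Veh_PD1, 10 for GYY_PD1 minus GYY_IgG and 2 for the donor average, and without GYY_PD1 replicates 1 and 4 (added after seeing the data) 7 and 1 for the first 2. A pseudocount of 0.1 gave 1, 1 and 2 (GYY_PD1 minus Veh_IgG, GYY_PD1 minus Veh_PD1, donor average). Library weights gave 2 for GYY_IgG minus Veh_IgG, 15 for GYY_PD1 minus Veh_IgG and 19 for the donor average. Fits of only the groups compared gave 3 for GYY_IgG minus Veh_IgG, 2 for GYY_PD1 minus Veh_IgG and 1 each for GYY_PD1 minus Veh_PD1 and minus GYY_IgG. Leaving out 1 library at a time gave 0 to 3 for GYY_PD1 minus Veh_IgG, 0 to 7 for GYY_PD1 minus Veh_PD1 and 0 to 1 for GYY_PD1 minus GYY_IgG, the donor average and the interaction, and 0 to 7 exact tests under 0.05. The replicate block gave 0 calls in all 8 comparisons and changed no call. Correlated pairs passing were 9 of 21 on unscaled values without GYY_PD1 replicates 1 and 4. None of these member differences passed limma, and the cause of the sign changes that follow was not tested. On deposited values GYY_PD1 replicate 1 entered at the floor of -8.879 for S100a8, S100a9, Retnlg and Cxcr2, and at -1.002 for Csf3r. On deposited values the log2 difference was -0.18 for Cxcl2 in GYY_IgG minus Veh_IgG and -0.31 for Cxcl1 in Veh_PD1 minus Veh_IgG. In GYY_PD1 minus Veh_IgG it was -0.44 for Csf3r, -0.93 for Cxcl2, -1.20 for Cxcr2, -2.36 for Retnlg and -2.51 for S100a9, in GYY_PD1 minus Veh_PD1 -0.53 for Csf3r, -0.99 for Cxcl2 and -1.66 for Cxcr2, and in GYY_PD1 minus GYY_IgG -0.85 for Csf3r, -1.46 for Cxcl1, -0.74 for Cxcl2, -1.87 for Cxcr2 and -1.61 for Retnlg. On deposited values without GYY_PD1 replicates 1 and 4 it was again -0.18 for Cxcl2 and -0.31 for Cxcl1, in GYY_PD1 minus Veh_IgG -0.093 for Cxcl2 and -0.16 for Retnlg, in GYY_PD1 minus Veh_PD1 -0.16 for Cxcl2, and in GYY_PD1 minus GYY_IgG -0.0083 for Csf3r, -0.26 for Cxcl1 and 0.013 for S100a9. On scaled values without those replicates it was 0.52 for S100a8 in GYY_PD1 minus Veh_IgG, -0.26 for Cxcl2 in GYY_PD1 minus Veh_PD1, and 0.11 for S100a8 and 0.37 for S100a9 in GYY_PD1 minus GYY_IgG. Values rescaled to coding genes gave 0.58, -0.22, 0.11 and 0.37 for these without those replicates, and with them -0.13 for Cxcl2 in GYY_PD1 minus Veh_PD1 and -0.16 for Cxcl1 in GYY_PD1 minus GYY_IgG. A pseudocount of 0.1 gave -0.10 for S100a9 in GYY_PD1 minus Veh_IgG and -0.15 for Cxcr2 in GYY_PD1 minus Veh_PD1, and one of 2 gave 0.20 for S100a8 in GYY_PD1 minus Veh_IgG and 0.0026 for S100a9 in GYY_PD1 minus GYY_IgG. Library weights gave -0.34 for Cxcl2, -0.28 for S100a8 and -0.012 for S100a9 in GYY_IgG minus Veh_IgG, 0.091 for Cxcl1 and 0.78 for S100a8 in GYY_PD1 minus Veh_IgG, and 1.06 for S100a8 and 1.36 for S100a9 in GYY_PD1 minus GYY_IgG. With 1 library left out, sign changes gave these ranges: in GYY_IgG minus Veh_IgG -0.36 to 0.58 for Cxcl2, -0.91 to 0.22 for Retnlg and -0.13 to 1.03 for S100a8; in GYY_PD1 minus Veh_IgG -0.51 to 0.30 for Cxcl1, -0.50 to 1.26 for Retnlg, -1.04 to 1.29 for S100a8 and -0.68 to 1.90 for S100a9; in GYY_PD1 minus Veh_PD1 -0.0073 to 0.76 for Csf3r, -0.51 to 0.40 for Cxcl2 and -0.40 to 0.72 for Cxcr2; in GYY_PD1 minus GYY_IgG -0.32 to 0.49 for Cxcl1, -0.26 to 0.86 for Cxcr2, -0.16 to 1.61 for Retnlg, -1.44 to 0.88 for S100a8 and -1.37 to 1.21 for S100a9. In Veh_PD1 minus Veh_IgG no member changed sign with 1 library left out. Depth is unknown, and Csf3 and Cxcl5 lay too low for their differences to be read.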
